A study of Mus musculus with 8 samples.

Results

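The interleukin-1 (IL-1) family was followed through 8 genes in mouse pancreatic ductal adenocarcinoma (PDAC) cells, namely *Il33*, *Il1a*, *Il1b*, *Il18*, *Il1rn*, *Il1r1*, *Il1rap* and *Il1rl1*. They were taken by gene name, 8 of the 53465 genes in the count table, with the levels of *Il33* and its relatives across the conditions already in view. All comparisons of the 8 genes, between conditions and between cell lines, are therefore given as levels and sizes without p-values. Where genes among the 8 are counted as past the adjusted p and fold thresholds, the count is a description and not a test. Tests are given for other genes of the pathway. Their lists were also chosen with earlier results of these data known, so the p-values are no independent support.

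RNA-seq libraries came from B73 and B87, 2 cell lines established from primary tumors in the pancreas of mice carrying *Ptf1a-Cre* and a doxycycline (Dox)-inducible short hairpin RNA against *Smad4*. In these mice Cre acts in pancreatic cells and also switches on the Dox-responsive transactivator at *Rosa26*. The hairpin cassette is a separate allele, and every library carries it. Continuous Dox gave the Smad4-off state and 5 days of Dox withdrawal the Smad4-on state, and both were treated for 24 h with 100 pM recombinant mouse TGFβ1 or with SB505124 at 2.5 µM, which blocks the kinase of the type I TGFβ receptor. This gave 4 groups of 2 libraries, 1 from each line, so a group mean rests on 2 independent tumors. Libraries from cells with Dox and a control hairpin were not analysed here, so *Smad4* state and Dox cannot be told apart. No untreated cells are among these libraries either, so each TGFβ1 value is set against receptor inhibition.

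IL-33 is an alarmin that is stored in the nucleus of epithelial cells and acts, once released, on the receptor ST2, the product of *Il1rl1*. IL-1α and IL-1β act on IL1R1, the IL-1 receptor antagonist (*Il1rn*) occupies IL1R1 without signaling, and IL1RAP is the co-receptor that ST2 and IL1R1 share. IL-18 uses its own receptor pair, IL18R1 and IL18RAP, and all of these receptors signal through MYD88 and IRAK kinases to NF-κB. In pancreatic cancer, IL-1 is known for driving inflammatory fibroblasts, and IL-33 for acting on lymphoid cells that carry ST2.

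Total counts ran from 18389235 to 23440550 per library, and the 10 most abundant genes took 4.32% to 5.63% of them. Levels are CPM, counts scaled to a common library size after TMM normalization, and 3 counts, taken as the smallest detectable level, correspond to 0.125 to 0.162 CPM by counting error alone. *Smad4* stood at 33.7 to 35.5 CPM in the 4 Smad4-off libraries and at 97.4 to 117 CPM in the 4 Smad4-on libraries, in the direction of the labels. The 6 epithelial markers summed to 1170 to 6183 CPM, although *Epcam* itself averaged 0.288 to 1.16 CPM in the groups. Of 7 leukocyte and macrophage markers, *Ptprc*, *Itgam*, *Adgre1* and *Lyz2* averaged under 0.1 CPM in each group, while *Cd14* averaged 23.2 to 42.8 CPM and *Cd68* 1.33 to 4.22 CPM. The 7 fibroblast markers summed to 14.5 to 64.5 CPM with Smad4 off under SB505124. With Smad4 on under TGFβ1 the sum was 203 to 1348 CPM. For B73 this higher sum was mostly *Acta2* (195 CPM), with *Col1a1* at only 5.10 CPM. For B87 both genes were high, *Acta2* at 701 CPM and *Col1a1* at 627 CPM. Other members moved little between these groups. Mean *Pdgfra* was 2.95 and then 2.14 CPM, *Pdgfrb* 7.02 and 7.90 CPM, and *Col1a2* 1.01 and 1.63 CPM. *Dcn* stayed under 0.1 CPM in each group mean. The part of these markers in the results was not tested. In bulk RNA, fewer cells expressing a gene and less RNA per cell cannot be told apart.

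The promoter sequences of *Il33*, *Il1rl1* and *Il1rn* are shown because these genes had the largest changes under TGFβ1 among the 8. Each is a window of 250 bases before and 50 bases after a RefSeq start site on GRCm38.p6, plus strand, written from 5′ to 3′. The 8 genes had 13 such windows. Capitals mark matches, on either strand, to CAGAC (the SMAD CAGA element), TGANTCA (AP-1), TGTGGT (RUNX) or the general NF-κB motif.
*Il33*, upstream start, chr19:29924863-29925162: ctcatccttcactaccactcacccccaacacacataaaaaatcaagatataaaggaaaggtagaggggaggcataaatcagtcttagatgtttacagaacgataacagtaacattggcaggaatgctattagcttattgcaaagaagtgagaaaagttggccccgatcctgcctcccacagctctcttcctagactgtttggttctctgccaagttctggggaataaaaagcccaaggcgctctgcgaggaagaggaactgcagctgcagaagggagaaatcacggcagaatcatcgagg
*Il33*, downstream start, chr19:29945540-29945839: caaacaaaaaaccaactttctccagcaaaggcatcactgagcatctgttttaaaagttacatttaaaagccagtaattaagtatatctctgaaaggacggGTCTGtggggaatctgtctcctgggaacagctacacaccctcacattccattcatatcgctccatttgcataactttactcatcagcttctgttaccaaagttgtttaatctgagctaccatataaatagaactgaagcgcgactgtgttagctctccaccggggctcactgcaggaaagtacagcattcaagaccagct
*Il1rl1*, upstream start, chr1:40429320-40429619: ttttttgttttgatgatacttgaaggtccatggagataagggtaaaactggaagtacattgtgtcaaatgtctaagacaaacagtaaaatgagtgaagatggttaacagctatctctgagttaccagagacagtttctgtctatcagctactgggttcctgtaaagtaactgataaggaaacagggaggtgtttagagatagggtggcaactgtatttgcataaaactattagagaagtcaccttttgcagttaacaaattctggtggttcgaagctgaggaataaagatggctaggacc
*Il1rl1*, downstream start, chr1:40439379-40439678: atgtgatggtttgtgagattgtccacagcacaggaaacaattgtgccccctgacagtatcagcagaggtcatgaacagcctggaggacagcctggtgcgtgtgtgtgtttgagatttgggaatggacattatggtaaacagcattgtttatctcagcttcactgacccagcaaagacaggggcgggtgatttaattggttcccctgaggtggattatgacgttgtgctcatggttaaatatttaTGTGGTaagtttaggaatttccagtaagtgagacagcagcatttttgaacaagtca
*Il1rn*, first start, chr2:24336610-24336909: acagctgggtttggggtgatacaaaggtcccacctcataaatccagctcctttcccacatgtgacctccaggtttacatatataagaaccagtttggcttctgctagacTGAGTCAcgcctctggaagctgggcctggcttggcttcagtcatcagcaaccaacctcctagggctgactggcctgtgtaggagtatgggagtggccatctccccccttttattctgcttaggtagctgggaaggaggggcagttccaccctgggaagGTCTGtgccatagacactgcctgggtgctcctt
The upstream *Il33* window held none of the letters searched, and the downstream window held 1 CAGA element, 150 bases before the start. *Il1rl1* held a RUNX match 6 bases before its downstream start and none of the other letters in either window. The first *Il1rn* window held an AP-1 match 141 bases before the start and a CAGA element just after it. The other 2 *Il1rn* windows overlap and held the same CAGA match. CAGA letters were in 7 of the 13 windows of the 8 genes, the shared *Il1rn* match being counted in both of its windows, and in 49.6% of all 32851 windows. AP-1 letters were in 2 of the 13 and in 7.81% of all windows, RUNX letters in 2 and 16.8%, and the NF-κB motif in 1 (*Il1r1*) and 8.46%. Windows of 1 gene can overlap, and the *Il1a* window holds an AP-1 and a CAGA match that share bases. A match is a description of letters, and counts per gene do not tell transcripts from the different starts apart.

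*Il33*, on chromosome 19 from 29925114 to 29960718 (GRCm38, plus strand), was high under SB505124, lower under TGFβ1 with Smad4 off, and close to lost under TGFβ1 with Smad4 on. In B73 it stood at 50.5 CPM (Smad4 off, SB505124), 59.1 CPM (Smad4 on, SB505124), 12.6 CPM (Smad4 off, TGFβ1) and 1.68 CPM (Smad4 on, TGFβ1). In B87 the levels were 26.3, 34.1, 7.57 and 1.07 CPM in the same order. Both lines gave the same order of groups, and only the pair of groups under SB505124 overlapped. The lowest level still rested on 33 counts in B73 and 21 counts in B87, above the 3 counts taken as detectable.

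**Figure D1:**
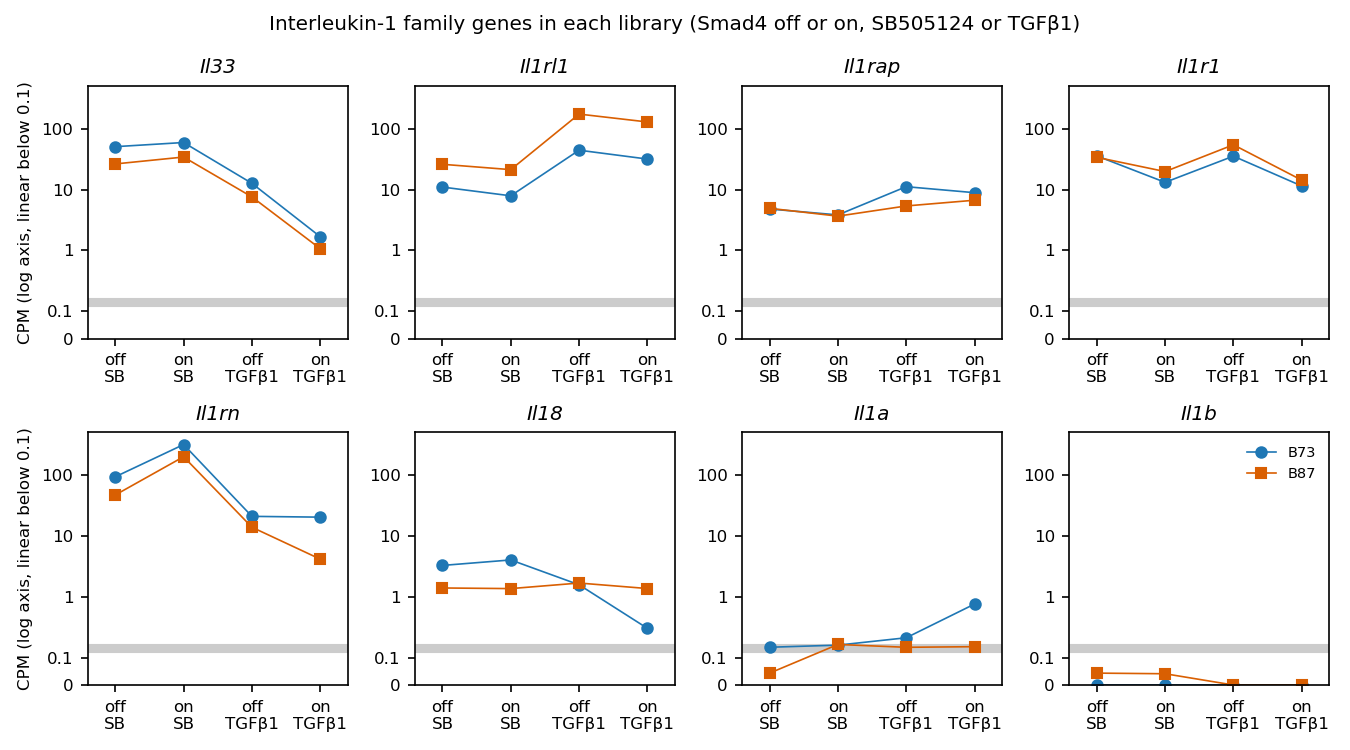
CPM of the 8 interleukin-1 family genes (log axis, linear below 0.1) in each of the 8 libraries, with Smad4 off or on under SB505124 or TGFβ1; lines join the libraries of B73 (circles) and B87 (squares), and the grey band is the level of 3 counts, 0.125 to 0.162 CPM. *Il33* falls to 1.07 and 1.68 CPM in the last group, *Il1rl1* is highest in the TGFβ1 groups, *Il1rn* peaks with Smad4 on under SB505124, and *Il1b* lies under the band throughout.

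Restoring *Smad4* thus went with little difference in *Il33* under receptor inhibition and with a large one under TGFβ1. Under SB505124, the mean was 38.4 ± 17.1 CPM (SD, n = 2) with Smad4 off and 46.6 ± 17.7 CPM with Smad4 on, a log2 fold change of 0.30 ± 0.11 (SE). Under TGFβ1, the mean was 10.1 ± 3.58 CPM with Smad4 off and 1.38 ± 0.434 CPM with Smad4 on, a log2 fold change of -2.87 ± 0.15. Measured within a line, *Il33* was 7.51-fold lower in B73 and 7.07-fold lower in B87.

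Seen from the side of TGFβ1, *Il33* was lower than under SB505124 in both *Smad4* states. With Smad4 off the log2 fold change was -1.90 ± 0.12, or 3.996-fold lower in B73 and 3.48-fold lower in B87. With Smad4 on it was -5.07 ± 0.15, or 35.1-fold lower in B73 and 31.9-fold lower in B87. The difference between these changes (the interaction) was -3.17 ± 0.19 on the log2 scale, and it was -3.07 within B73 and -3.09 within B87. A TGFβ1-associated fall was therefore measured in cells with reduced *Smad4*, which still held 34.7 and 35.5 CPM of *Smad4* under TGFβ1. With Smad4 on, epithelial markers moved beside *Il33* in part. *Cdh1* averaged 275 CPM under SB505124 and 60.2 CPM under TGFβ1, and *Krt19* 1152 and 226 CPM. *Krt8* averaged 1090.1 and 1326 CPM, and *Krt18* 1068 and 1588 CPM. Their part in the *Il33* difference was not tested.

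*Il1rl1*, which encodes the IL-33 receptor ST2 and lies on chromosome 1 from 40429570 to 40465415, was higher under TGFβ1 than under SB505124. In B73 it stood at 10.98 CPM (Smad4 off, SB505124), 7.89 CPM (Smad4 on, SB505124), 44.2 CPM (Smad4 off, TGFβ1) and 31.6 CPM (Smad4 on, TGFβ1). In B87 the levels were 26.0, 21.2, 173 and 128 CPM. The TGFβ1 groups lay above the SB505124 groups without overlap, and the *Smad4* groups overlapped under either treatment. TGFβ1 minus SB505124 gave a log2 fold change of 2.40 ± 0.20 with Smad4 off and 2.34 ± 0.21 with Smad4 on, and the interaction was -0.06 ± 0.28. *Smad4* restoration gave -0.39 ± 0.21 under SB505124 and -0.45 ± 0.19 under TGFβ1. Per kilobase of transcript, *Il33* stood at 16.2 CPM and *Il1rl1* at 2.11 CPM with Smad4 on under SB505124, and at 0.477 and 11.6 CPM with Smad4 on under TGFβ1. *Il1rl1* was highest with Smad4 off under TGFβ1, at 15.8 CPM per kilobase.

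*Il1rap*, the co-receptor gene on chromosome 16, was low, and higher under TGFβ1 than under SB505124. Its levels in B73 were 4.79 and 3.84 CPM under SB505124 (Smad4 off, then on) and 11.1 and 8.88 CPM under TGFβ1. In B87 they were 4.92 and 3.66 CPM under SB505124 and 5.38 and 6.68 CPM under TGFβ1. The TGFβ1 groups lay above the SB505124 groups. The ratio was 2.31-fold with Smad4 on and 2.32-fold with Smad4 off in B73, and 1.82-fold and 1.09-fold in B87. TGFβ1 minus SB505124 gave 1.03 ± 0.29 on the log2 scale with Smad4 on and 0.71 ± 0.28 with Smad4 off. Without strand-aware counting, whose setting was not stated, 552 exon bases would be shared with the antisense gene *Gm20319*. Of the 75-base stretches of *Il1rap*, 3.53% also occur in other genes. Matches on either strand were counted, so these can include the overlap with *Gm20319*.

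**Figure D2:**
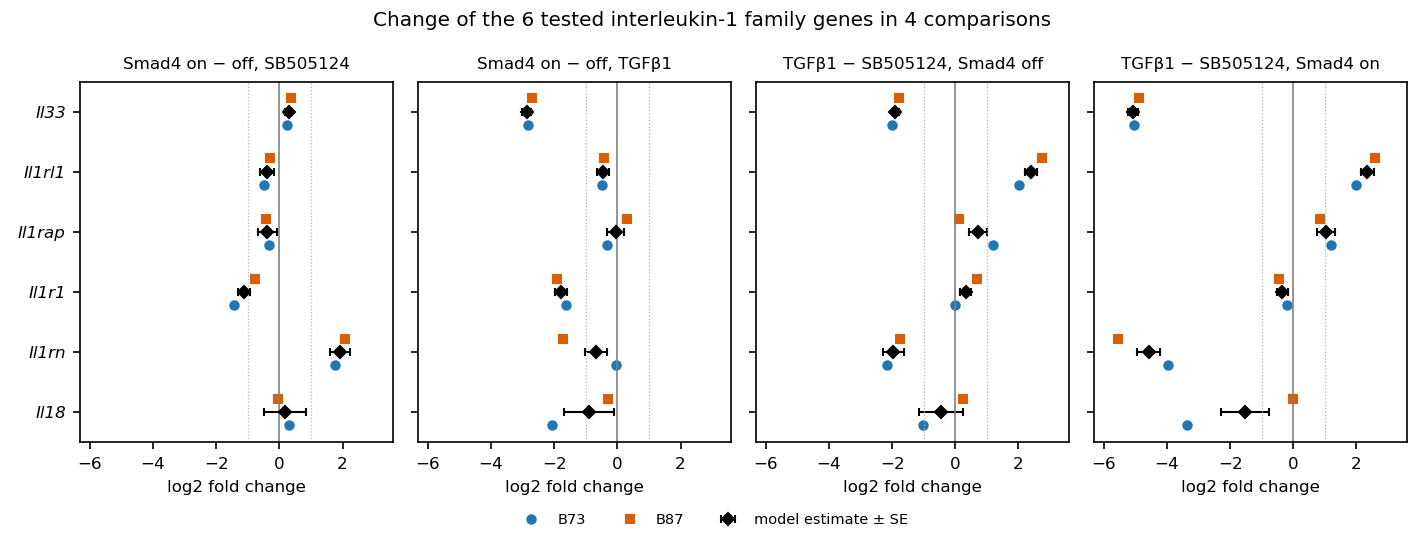
Log2 fold changes of the 6 tested family genes for Smad4 on minus off and for TGFβ1 minus SB505124; circles and squares are B73 and B87 alone, diamonds the model estimate with its SE, and dotted lines mark 2-fold. *Il33* lies at -2.87 and *Il1r1* at -1.78 for *Smad4* under TGFβ1, *Il1rl1* lies at 2.40 and 2.34 for TGFβ1, and the lines differ most for *Il1rn* and *Il18*.

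*Il1r1*, the signaling receptor for IL-1α and IL-1β on chromosome 1 from 40225080 to 40317257, was lower with Smad4 on under both treatments. In B73 it stood at 35.6 CPM (Smad4 off, SB505124), 13.1 CPM (Smad4 on, SB505124), 35.3 CPM (Smad4 off, TGFβ1) and 11.4 CPM (Smad4 on, TGFβ1). In B87 the levels were 33.8, 19.7, 54.2 and 14.3 CPM. The 4 Smad4-on libraries lay below the 4 Smad4-off libraries without overlap, whereas TGFβ1 and SB505124 overlapped in both *Smad4* states. Smad4 on minus off gave a log2 fold change of -1.11 ± 0.18 under SB505124 and -1.78 ± 0.19 under TGFβ1, and the interaction was -0.67 ± 0.26. TGFβ1 minus SB505124 gave 0.33 ± 0.18 with Smad4 off and -0.34 ± 0.19 with Smad4 on.

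*Il1rn*, whose product blocks IL1R1, was highest with Smad4 on under SB505124, at a mean of 46.7 CPM per kilobase, and averaged 16.2 CPM per kilobase over all libraries. In B73 it stood at 93.8 CPM (Smad4 off, SB505124), 317 CPM (Smad4 on, SB505124), 21.0 CPM (Smad4 off, TGFβ1) and 20.4 CPM (Smad4 on, TGFβ1). In B87 the levels were 47.2, 200.2, 13.9 and 4.18 CPM. With Smad4 on under SB505124 it was above every other group, and the pair of TGFβ1 groups overlapped.

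Under SB505124 the *Il1rn* mean was 70.5 ± 33.0 CPM with Smad4 off and 259 ± 82.7 CPM with Smad4 on (SD, n = 2), a log2 fold change of 1.93 ± 0.31. The difference was 3.38-fold in B73 and 4.24-fold in B87. Under TGFβ1 the same comparison gave -0.68 ± 0.36, with a 1.03-fold lower level in B73 and a 3.34-fold lower level in B87. It was -0.14 without the B87 library with Smad4 on and -1.64 without the B73 library, with 1 library left in that group each time. TGFβ1 minus SB505124 gave -1.96 ± 0.33 with Smad4 off and -4.57 ± 0.37 with Smad4 on. In the last comparison *Il1rn* was 15.5-fold lower in B73 and 47.9-fold lower in B87. Thus *Smad4* on under SB505124 paired the highest *Il1rn* with reduced *Il1r1*, and under TGFβ1 both were low.

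*Il18*, an IL-1 family cytokine released after caspase cleavage, was scarce and split the lines. In B73 it stood at 3.29 and 4.05 CPM under SB505124 (Smad4 off, then on), 1.59 CPM with Smad4 off under TGFβ1 and 0.306 CPM, or 6 counts, with Smad4 on under TGFβ1. In B87 the levels were 1.41, 1.37, 1.69 and 1.38 CPM. B87 stayed within a narrow band, while the B73 level with Smad4 on was 13.2-fold lower under TGFβ1 than under SB505124. TGFβ1 minus SB505124 with Smad4 on gave -1.53 ± 0.77 on the log2 scale, from -3.37 in B73 and 0.0038 in B87. The size was -3.45 without the B87 library with Smad4 on under TGFβ1 and -0.35 without the B73 library. Each of these leaves 1 library in that group.

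The founding IL-1 cytokines were close to absent. *Il1a* (chromosome 2) had 3, 3, 5 and 15 counts in B73 and 1, 4, 3 and 3 counts in B87, in the order Smad4 off and on under SB505124, then Smad4 off and on under TGFβ1. Its highest level, 0.765 CPM, was in the B73 library with Smad4 on under TGFβ1, and the B87 library of that group held 0.153 CPM, at the 3-count level. *Il1b* had 1 count in each B87 library under SB505124 and 0 counts in the other 6 libraries, which allows up to the 3-count level of 0.125 to 0.162 CPM. Both genes were removed by the filter on low counts, so 6 of the 8 were tested.

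Across the 6 tested genes, those past the thresholds of the fit (edgeR adjusted p under 0.05 and over 2-fold) differed by comparison. For *Smad4* under TGFβ1 these were *Il33* and *Il1r1*, 2 of 6, where 3.12% of all 14301 tested genes were past them. For *Smad4* under SB505124 they were *Il1rn* and *Il1r1*, 2 of 6 against 1.09%. For TGFβ1 with Smad4 on they were 4 of 6 (*Il33*, *Il1rn*, *Il1rap* and *Il1rl1*) against 13.9%, and with Smad4 off 3 of 6 (*Il33*, *Il1rn* and *Il1rl1*) against 5.93%. In the interaction it was *Il33*, 1 of 6 against 0.189%. Since the genes were chosen on these comparisons, nothing is read from the shares. The comparisons share libraries, as each group enters 2 of the pairwise comparisons. Groups without overlap, as described for single genes above, occurred in 44.8% and 31.4% of tested genes for *Smad4* under TGFβ1 and under SB505124, and in 58.3% and 49.4% for TGFβ1 with Smad4 on and off.

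Those counts depended on the pairing of the libraries by line. Without the line in the edgeR model (no replicate block), 0, 0, 2, 0 and 0 genes were past the thresholds, in the order of the comparisons above, with *Il33* and *Il1rn* left for TGFβ1 with Smad4 on. The size for *Il33* and *Smad4* under TGFβ1 was -2.87 in both fits. In the interaction, *Il33* was not past the thresholds without either library with Smad4 off under TGFβ1. Over all single omissions the interaction ran from -3.26 to -3.06 for *Il33* and from -3.56 to -2.05 for *Il1rn*. For *Smad4* under SB505124, *Il1rn* and *Il1r1* were both lost without any of the libraries B73 Smad4 off (SB505124), B73 or B87 Smad4 on (SB505124) and B73 or B87 Smad4 off (TGFβ1), while *Il1rn* alone was lost without B87 Smad4 off (SB505124) and *Il1r1* alone without either library with Smad4 on under TGFβ1. Their sizes ran from 1.66 to 2.18 for *Il1rn* and from -1.40 to -0.81 for *Il1r1*. For TGFβ1 with Smad4 off, *Il1rn* was lost without B73 or B87 Smad4 off (TGFβ1) or B87 Smad4 off (SB505124), with sizes from -2.25 to -1.67. For TGFβ1 with Smad4 on, *Il1rap* was lost without either library with Smad4 on under SB505124 or either with Smad4 on under TGFβ1, with sizes from 0.84 to 1.25.

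The levels of both cell lines were in view when the genes were chosen, so the line differences (B87 minus B73, over the 4 groups) are also given as sizes. *Il1rl1* was higher in B87 in 4 of 4 groups, by 3.25-fold (log2 1.70 ± 0.14). *Il33* was lower in B87 in 4 of 4 groups, by 1.76-fold (log2 -0.81 ± 0.09), and *Il1rn* in 4 of 4 groups, by 2.04-fold (log2 -1.03 ± 0.23). The differences of *Il1r1* (log2 0.36 ± 0.13), *Il1rap* (-0.39 ± 0.20) and *Il18* (-0.42 ± 0.52) were smaller. Past both thresholds were 2 of the 6 genes (*Il1rl1* and *Il1rn*), against 8.37% of all tested genes. The *Il1rn* difference was not past them without the B73 or B87 library with Smad4 off under SB505124, or, at under 2-fold (log2 -0.76 at the lowest), without either library with Smad4 on under TGFβ1.

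Markers of other cell types differed between the lines as well. The epithelial markers *Krt7*, *Krt8* and *Cdh1* were lower in B87, by log2 differences of -4.86, -2.51 and -2.06. The fibroblast markers *Col1a1*, *Pdgfrb* and *Pdgfra* were higher in B87, by 6.75, 4.64 and 2.63, and *Col1a2* was lower (-4.03). Their part in the line differences of the family was not tested.

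The line-by-TGFβ1 term, the TGFβ1 difference in B87 less that in B73, called 0 of 6 genes and 0 of all 14301 (0%) in edgeR, although 1198 of all had an unadjusted p under 0.05. DESeq2 called 0 of the 6 and 25 of all genes. For *Il1rl1* the term was 0.67 ± 0.13 on the log2 scale, with a mean TGFβ1 difference over both *Smad4* states of 1.996 in B73 and 2.66 in B87. For *Il18* it was 2.24 ± 0.66, with mean differences of -2.19 in B73 and 0.13 in B87. The line-by-Smad4 term called 0 of 6 genes in edgeR and in DESeq2, against 0.392% of all genes in edgeR and 105 of all 14301 in DESeq2.

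*Il1r1* and *Il1rl1* lie in a run of 6 receptor genes on the plus strand of chromosome 1, in the order *Il1r2*, *Il1r1*, *Il1rl2*, *Il1rl1*, *Il18r1* and *Il18rap*. *Il1rl1* and *Il18r1* are 136 bases apart, and *Il18rap* follows 14507 bases later, while 62007 bases part *Il1rl1* from *Il1rl2*. *Il18r1* and *Il18rap*, the IL-18 receptor chains, were looked at after their values were seen. *Il18rap* stood at 36.3 and 17.9 CPM under SB505124 (Smad4 off, then on) and at 179.7 and 144 CPM under TGFβ1 in B73. In B87 it stood at 23.7 and 16.7 CPM under SB505124 and at 143 and 70.6 CPM under TGFβ1. It rose with TGFβ1 by 2.45 ± 0.20 with Smad4 off (edgeR adjusted p = 0.00109) and by 2.55 ± 0.21 with Smad4 on (adjusted p = 0.000293).

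*Il18r1* was scarce, with 3 and 7 counts under SB505124 and 46 and 83 counts under TGFβ1 with Smad4 off in B73 and B87. It rose by 3.66 ± 0.66 there (edgeR adjusted p = 0.0147). With Smad4 on it had 3 and 2 counts under SB505124 and 19 and 7 counts under TGFβ1, and that difference did not pass (adjusted p = 0.0713). *Il1r2*, the decoy receptor, had at most 2 counts in any library and *Il1rl2*, the IL-36 receptor, at most 7. The *Il18r1* call was lost without B73 or B87 Smad4 off under SB505124 (adjusted p = 0.0742 and 0.0837), without B87 Smad4 off under TGFβ1 (0.124), and without the pairing by line (no replicate block, 0.0741).

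**Figure D3:**
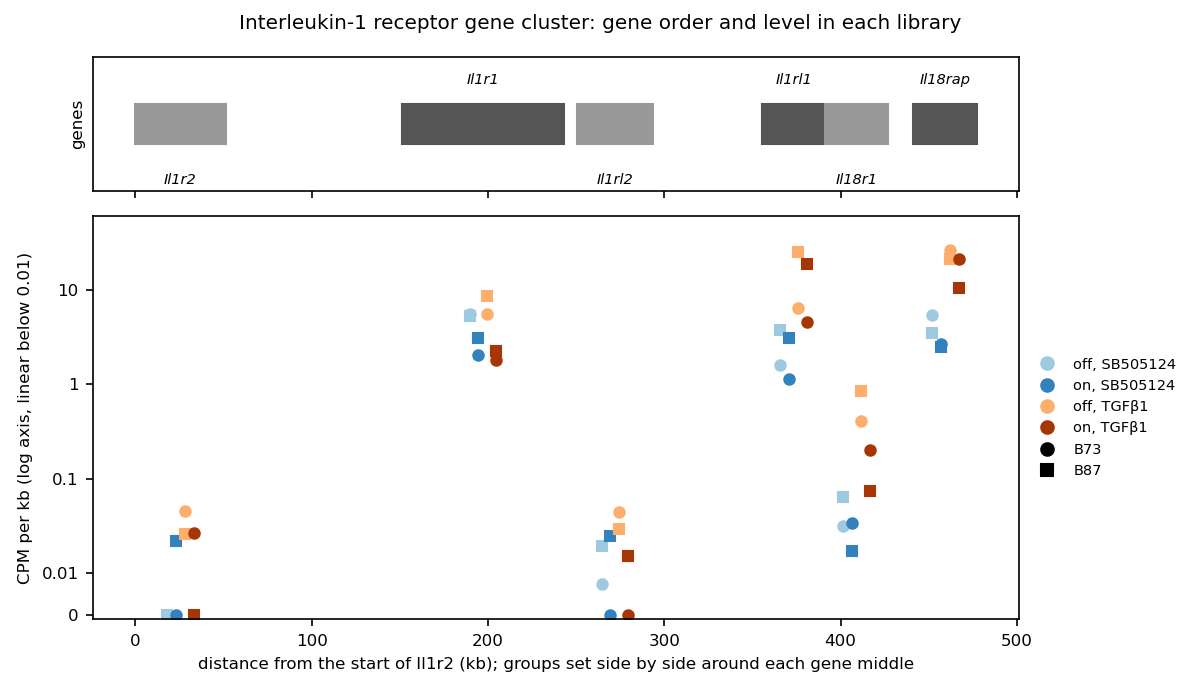
Upper panel, the 6 receptor genes by distance in kilobases from the start of *Il1r2*, with grey shades only to part neighbours; lower panel, CPM per kilobase of transcript (log axis, linear below 0.01) in each library, set side by side by group around each gene's middle, circles for B73 and squares for B87. *Il1rl1*, *Il18r1* and *Il18rap* have their TGFβ1 libraries (orange and brown) highest, *Il1r1* has its Smad4-off libraries (light shades) highest, and *Il1r2* and *Il1rl2* lie near 0.

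A list of 13 other family ligands and receptors held 4 tested genes. The ligand genes *Il1f5*, *Il1f6*, *Il1f8* and *Il1f10* had 0 counts in every library, and *Il1f9* had at most 2. *Sigirr*, an inhibitory receptor of the family, was the most abundant at 28.7 CPM per kilobase over all libraries, and *Il18bp*, a secreted IL-18 inhibitor, held 44 to 60 counts. *Smad4* restoration called 0 of the 4 under TGFβ1 and 0 under SB505124 in edgeR and in DESeq2 with the line, although 3 and 1 had an unadjusted edgeR p under 0.05. Over all tested genes edgeR called 3.12% and 1.09%. The list median under TGFβ1 was -0.56 on the log2 scale, against -0.01 over all tested genes.

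The receptor-proximal and NF-κB signaling genes were measured in full, 19 of 19. *Smad4* restoration called 0 of them in edgeR under TGFβ1 (8 at an unadjusted p under 0.05) and 0 under SB505124 (2 at an unadjusted p under 0.05). Over all 14301 tested genes edgeR called 3.12% and 1.09%, and 3396 and 1809 genes had an unadjusted p under 0.05. DESeq2 with the line called 1 under TGFβ1, *Irak2*, and 0 under SB505124, against 504 and 210 of all 14301 tested genes. TGFβ1 with Smad4 off called 0 of 19 in edgeR (8 at an unadjusted p under 0.05) and 0 in DESeq2 with the line. Over all tested genes edgeR called 5.93% there. With Smad4 on, TGFβ1 called 2 higher and 1 lower of 19, close to the share of 13.9% of all tested genes. These 3 are named here after their values were seen, and nothing is read from their number. *Irak2*, a kinase of the MYD88 complex, rose by 1.45 ± 0.12 (edgeR adjusted p = 0.00033), and *Nfkb2*, the NF-κB p100 subunit, by 1.06 ± 0.13. *Irak3*, an inhibitor of the complex, fell by 1.28 ± 0.32 (edgeR adjusted p = 0.021) and was not called by DESeq2 (adjusted p = 0.0553), nor in edgeR without any of the 4 Smad4-on libraries (from 0.0634 to 0.131) or without the pairing by line (no replicate block, 0.0724). *Nfkb2* was under 2-fold without B73 Smad4 on under TGFβ1 (0.91) or B87 Smad4 on under SB505124 (0.98). The list median of 0.10 lay near the -0.02 of all genes.

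Of 18 genes for the processing and release of the cytokines, 13 were tested, and *Smad4* restoration changed 2 under TGFβ1, 1 in each direction, and 1 under SB505124, against 3.12% and 1.09% of all tested genes. *Casp4*, the inflammatory caspase-11 that activates gasdermin D, stood at 12.7 and 10.7 CPM with Smad4 off (SB505124, then TGFβ1) and at 0.865 and 0.765 CPM with Smad4 on in B73. In B87 it stood at 8.39 and 11.7 CPM with Smad4 off and at 1.75 and 1.63 CPM with Smad4 on. It fell by 3.23 ± 0.42 on the log2 scale under TGFβ1 (edgeR adjusted p = 0.00839) and by 3.01 ± 0.42 under SB505124 (adjusted p = 0.0216), lower in both lines each time. *Capn2*, a calpain subunit of the protease that trims IL-1α, rose by 1.02 ± 0.09 under TGFβ1 (edgeR adjusted p = 0.00187), with 406 CPM (Smad4 off) and 824 CPM (Smad4 on) in B73, and 386 and 783 CPM in B87. The list medians were -0.05 under TGFβ1 and -0.04 under SB505124.

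TGFβ1 called 0 higher and 2 lower of the 13 with Smad4 on, against 13.9% of all tested genes. With Smad4 off it called 0 in edgeR (4 at an unadjusted p under 0.05), against 5.93% of all tested genes, and 0 in DESeq2. The 2 were named after their values were seen. *Gsdme*, a pore-forming gasdermin, fell by 1.39 ± 0.18 in log2 terms (adjusted p = 0.00164 in edgeR), and *S100a13*, which takes part in the release of IL-1α, fell by 1.41 ± 0.19 (adjusted p = 0.00213). Both passed in all 8 single omissions and in DESeq2, and without the pairing by line (no replicate block) *Gsdme* did not pass (edgeR adjusted p = 0.119).

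The *Casp4* difference under TGFβ1 ran from -3.86 to -2.77 on the log2 scale over the 8 single omissions, and its call was lost without either library with Smad4 off under TGFβ1 (adjusted p = 0.0706 and 0.0562 for B73 and B87) or without the B73 library with Smad4 on under TGFβ1 (0.0561). Under SB505124 the *Casp4* difference ran from -3.60 to -2.42, and the call was lost without any of 5 libraries, B73 Smad4 off (SB505124, adjusted p = 0.0787), B73 and B87 Smad4 on (SB505124, 0.155 and 0.0572) and B73 and B87 Smad4 off (TGFβ1, 0.0556 and 0.0565). *Capn2* was under 2-fold without B73 Smad4 off or B87 Smad4 on under TGFβ1 (0.97 at the lowest). Without the pairing by line (no replicate block), *Casp4* had adjusted p = 0.0933 under TGFβ1 and 0.28 under SB505124 in edgeR.

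Of 21 genes that IL-1 induces through NF-κB in many cell types, 18 were tested. *Smad4* restoration changed 1 higher and 3 lower under TGFβ1 and 0 higher and 3 lower under SB505124, against 3.12% and 1.09% of all tested genes. The list medians were 0.30 and -0.49 on the log2 scale. The members that moved are chemokines, an adhesion molecule, an NF-κB inhibitor and a prostaglandin enzyme.

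*Ptgs2*, which encodes cyclooxygenase-2, was the 1 gene higher with Smad4 on under TGFβ1. It stood at 260 and 773 CPM in B73 and at 461 and 1244 CPM in B87 (Smad4 off, then on), a log2 rise of 1.497 ± 0.16 (edgeR adjusted p = 0.00442). *Ccl2*, a monocyte chemokine, stood at 15.4 and 1.58 CPM in B73 and at 34.7 and 3.57 CPM in B87, so that it fell by 3.27 ± 0.53 (edgeR adjusted p = 0.0164, 0.0652 in DESeq2 with the line). *Icam1*, an adhesion molecule for leukocytes, stood at 7.84 and 2.35 CPM in B73 and at 8.17 and 0.714 CPM in B87, so that it fell by 2.52 ± 0.41 (edgeR adjusted p = 0.0167). These 3 genes had the same direction in both lines.

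*Nfkbie*, an inhibitor of NF-κB, was lower with Smad4 on under both treatments. It fell by 1.21 ± 0.20 under TGFβ1 (edgeR adjusted p = 0.0173) and by 1.54 ± 0.20 under SB505124 (adjusted p = 0.0185), in both lines. The chemokine genes *Ccl20* and *Cxcl5* passed under SB505124. *Ccl20* stood at 2.50 and 0.054 CPM in B73 and at 2.50 and 0.457 CPM in B87 (Smad4 off, then on), so that it fell by 3.27 ± 0.55 (edgeR adjusted p = 0.0432). The 0.054 CPM was 1 count, under the 3-count level of 0.162 CPM in that library, so the size of the fall in B73 is uncertain. *Cxcl5* stood at 12.9 and 1.24 CPM in B73 and at 1.45 and 0.333 CPM in B87, so that it fell by 2.93 ± 0.38 (edgeR adjusted p = 0.0274).

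These calls leaned on single libraries. *Ccl20* was lost in all 8 single omissions (edgeR adjusted p from 0.0572 to 0.171), its log2 difference running from -5.21 without B87 Smad4 on to -2.61 without B73 Smad4 on, both under SB505124. *Cxcl5* was lost without B73 Smad4 off or on under SB505124 (0.324 and 0.313), B87 Smad4 off under SB505124 (0.0534), or B73 or B87 Smad4 off under TGFβ1 (0.0733 and 0.0717), and ran from -3.36 to -2.14. *Ccl2* and *Nfkbie* under TGFβ1 were each lost without any of the 4 TGFβ1 libraries (from 0.0881 to 0.13 for *Ccl2* and from 0.0704 to 0.136 for *Nfkbie*). Over the 8 omissions *Ccl2* ran from -3.40 to -3.17 and *Nfkbie* from -1.34 to -1.09. *Icam1* was lost without B87 Smad4 off or on under TGFβ1 (0.0711 and 0.0771) and ran from -3.22 to -1.98. *Nfkbie* under SB505124 was lost without B73 or B87 Smad4 off (SB505124, 0.108 and 0.0534), B73 Smad4 on (SB505124, 0.109) or B87 Smad4 off (TGFβ1, 0.0509). *Ptgs2* passed in all 8 omissions (adjusted p up to 0.0433). Without the pairing by line (no replicate block), none of these calls passed in edgeR, with adjusted p from 0.169 for *Ptgs2* under TGFβ1 to 0.921 for *Cxcl5* under SB505124. Of all 14301 tested genes, that fit called 36 for *Smad4* under TGFβ1 and 2 under SB505124.

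**Figure D4:**
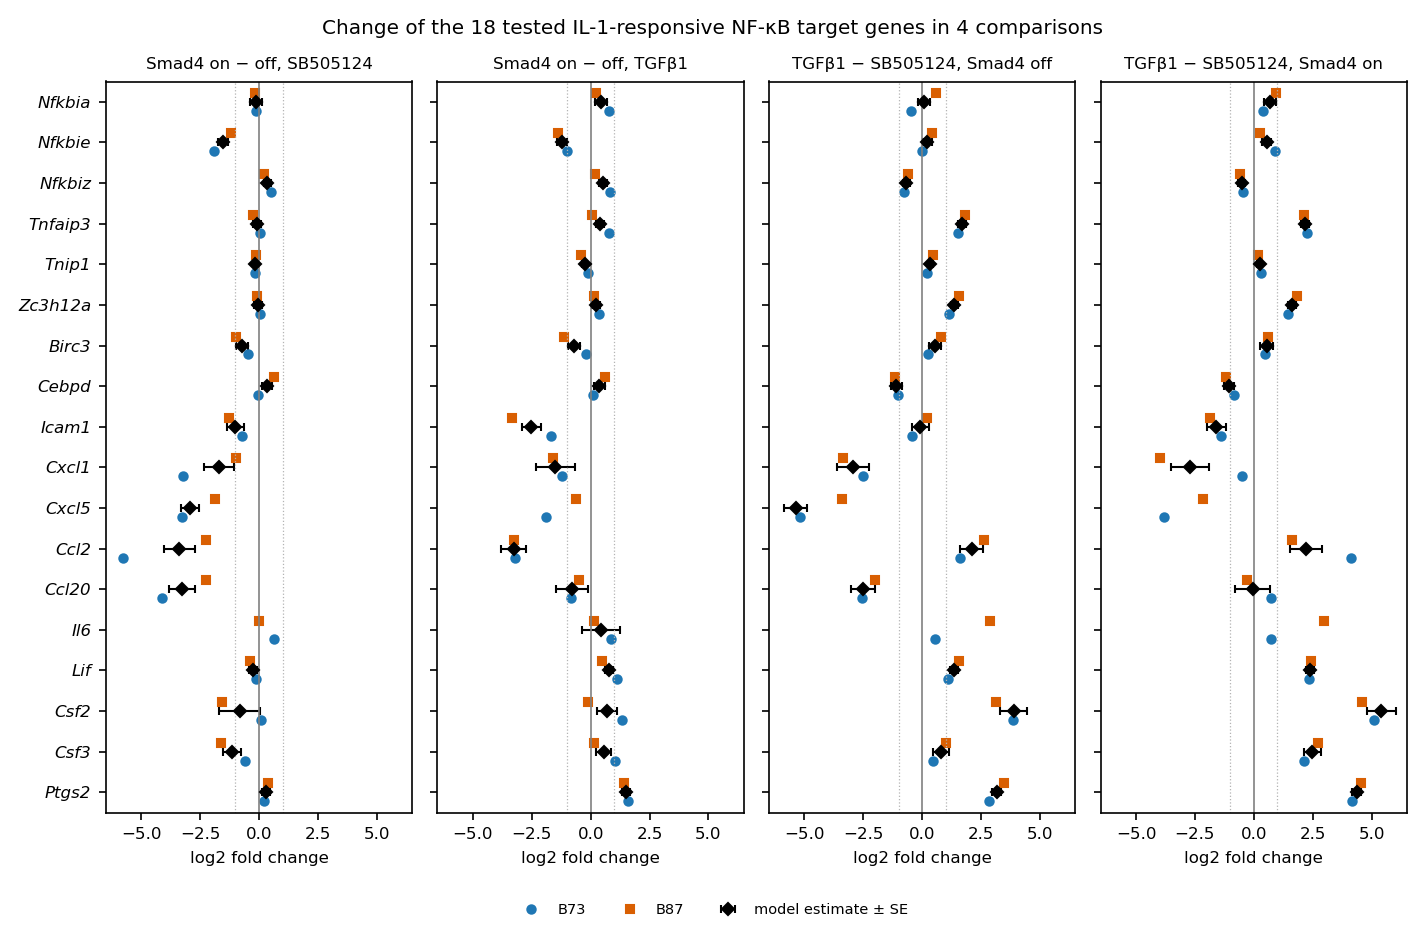
Log2 fold changes of the 18 tested IL-1-responsive NF-κB target genes in the same 4 comparisons; circles and squares are B73 and B87 alone, diamonds the model estimate with its SE (left out where a group held at most 3 counts in each library), and dotted lines mark 2-fold. *Ptgs2*, *Csf2*, *Lif*, *Tnfaip3* and *Zc3h12a* lie to the right for TGFβ1 and *Cxcl1* and *Cxcl5* to the left, in both *Smad4* states and both lines.

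TGFβ1 divided the same target list. With Smad4 on, 7 genes were higher and 4 lower of 18, and with Smad4 off 6 were higher and 4 lower, against 13.9% and 5.93% of all tested genes called. The genes named here were chosen after their values were seen. *Ptgs2* rose by 4.36 ± 0.18 with Smad4 on and by 3.15 ± 0.17 with Smad4 off, and *Csf2*, a myeloid growth factor, by 5.41 ± 0.61 and 3.88 ± 0.58 (edgeR adjusted p = 0.000985 and 0.00739). *Tnfaip3* and *Zc3h12a*, which restrain NF-κB signaling and inflammatory mRNA, rose in both states by between 1.37 and 2.18. The neutrophil chemokine gene *Cxcl1* fell by 2.73 ± 0.81 with Smad4 on and by 2.94 ± 0.68 with Smad4 off (edgeR adjusted p = 0.039 and 0.0344). *Cxcl5* was at 0 counts in both libraries with Smad4 on under TGFβ1. *Cxcl1* was lost without any single library but B73 Smad4 on under SB505124 for TGFβ1 with Smad4 on (adjusted p from 0.0547 to 0.267). With Smad4 on its log2 difference was -0.51 within B73 and -3.995 within B87, and the model estimate was -0.89 without B87 Smad4 on under SB505124 and -1.86 without B87 Smad4 on under TGFβ1. It was also lost without any of the 4 Smad4-off libraries for TGFβ1 with Smad4 off (from 0.0989 to 0.256). *Csf2* with Smad4 off was lost without B73 Smad4 off under SB505124 (0.0599). Without the pairing by line (no replicate block), 6 were higher and 0 lower with Smad4 on and 3 higher and 0 lower with Smad4 off. That fit called 1035 and 168 of all 14301 tested genes in these 2 comparisons. The interaction called 0 of the 54 tested list genes in edgeR, with 1 signaling gene, 4 processing genes and 5 target genes at an unadjusted p under 0.05, and 2 (*Lif* and *Ptgs2*) in DESeq2 with the line. Of all 14301 tested genes, the interaction called 27 in edgeR and 136 in DESeq2 with the line.

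The pattern of *Il33* over the 8 libraries was matched most closely by *Cbx7*, *Cdk19*, *Zmym3*, *B3galt4* and *Aldh1a1*, by Pearson's r of log2 CPM over 11099 genes with a mean log2 CPM of at least 1. Their r ran from 0.991 to 0.995, as a description over 8 libraries that share 2 lines and 4 treatments. *Aldh1a1*, a retinaldehyde dehydrogenase, stood at 171, 166, 69.5 and 30.9 CPM in B73 and at 110.0, 110.0, 50.0 and 23.0 CPM in B87, in the order Smad4 off and on under SB505124, then under TGFβ1. *Cbx7*, a Polycomb subunit, stood at 44.7, 43.8, 23.0 and 12.7 CPM in B73 and at 33.6, 36.4, 19.3 and 10.3 CPM in B87. Their falls were shallower than that of *Il33*, and with the lines centred the 5 genes ranked between 2 and 9.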

How the data were processed

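The 8 genes and the pathway lists were chosen with earlier results of these data known. The authors deposited raw counts per gene, which they made from stranded poly(A) libraries (single-end reads of 75 bases) with Trimmomatic 0.36, STAR 2.5.3a and featureCounts 1.6.3 on GRCm38 (mm10), per the labels and the submitters' processing notes; settings for strand and multiply aligned reads were not stated. PCR copies could not be removed from such counts. Groups came from the labels. All 8 libraries entered 1 edgeR 4.0.16 quasi-likelihood fit (R 4.3.3, limma 3.58.1) with TMM scaling, filterByExpr (14301 of 53465 genes kept), the 4 groups and the line. A call needs a Benjamini-Hochberg adjusted p under 0.05 over all tested genes and a change over 2-fold. The SE was taken as |log2 fold change|/√F, folds within a line given as log2 use a prior count of 2, and other folds are ratios of CPM. The study's methods name DESeq2 without a covariate. The line was fitted because the titles give each line in all groups; its deviations correlated across groups with r from 0.642 to 0.774 in 6 pairs. Line-by-TGFβ1 and line-by-Smad4 terms were added 1 at a time. Named genes were the 8, pathway genes called in the *Smad4* comparisons or the interaction (up to 4 per list), *Smad4*, and the 5 genes most like *Il33*; others are stated as chosen later. CPM per kilobase uses the transcript length in the deposited table. Promoters are RefSeq's (GRCm38.p6), and gene positions matched GENCODE M21 for all 8. On simulated counts for 13973 genes with 200 changed by log2 2, the fit recovered 85% for *Smad4* under TGFβ1, 94% for the line and 75% for the line-by-TGFβ1 term, where 10.7% of calls were false. Alternatives were DESeq2 1.42.0 (with and without the line), its size factors, no filter, at least 10 counts per library, no line, other fold rules, a joint fit and leaving out each library. Part of the genotype that all libraries share is not reported here.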

Additional observations from a re-analysis of the deposited data

Results flagged for a closer look

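In 5 comparisons the log2 fold changes of the lines had opposite signs. B87 minus B73 is the value given, and the difference itself was not tested in that comparison. For *Il1r1*, and for *Il18* in the TGFβ1 comparison with Smad4 on and the *Smad4* comparison under SB505124, 1 line was close to no change. With 1 library per line and group, each such value rests on 4 libraries. *Il18* for TGFβ1 with Smad4 on differed by 3.37 on the log2 scale (-3.37 in B73 and 0.0038 in B87), with 6 counts in the B73 library with Smad4 on under TGFβ1. *Il18* for TGFβ1 with Smad4 off differed by 1.27 (-1.01 and 0.25), and for *Smad4* under SB505124 by -0.32 (0.29 and -0.03). *Il1r1* for TGFβ1 with Smad4 off differed by 0.70 (-0.01 and 0.68). *Il1rap* for *Smad4* under TGFβ1 differed by 0.63 (-0.32 and 0.31).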

How the results depend on the processing

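Of the 8 genes, those called for *Smad4* under TGFβ1, *Smad4* under SB505124, TGFβ1 with Smad4 on, TGFβ1 with Smad4 off and the interaction numbered 2, 2, 4, 3 and 1. Without the pairing by line (no replicate block) edgeR gave 0, 0, 2, 0 and 0, beside 36, 2, 1035, 168 and 0 of all 14301 tested genes. DESeq2 without the pairing gave 1 for *Smad4* under SB505124, 2 for TGFβ1 with Smad4 on and 1 with Smad4 off. A test against 2-fold gave 1 for *Smad4* under TGFβ1 and 0 under SB505124, at least 10 counts per library gave 1 for *Smad4* under SB505124, and the interaction had 2 (*Il33* and *Il1rn*) without a filter and in DESeq2 with the line. DESeq2 with the line called 136 of all 14301 tested genes in the interaction. Line by TGFβ1 gave 1 (*Il18*) without a filter and in the joint fit. Where no share is given here or below, calls over all genes were not counted under that setting. Nothing is read about the family from those counts. The *Il33* interaction was -3.17, -3.07 within B73 and -3.09 within B87.

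Called pathway genes numbered 6, 4, 17, 12 and 0 in the same order. Without the pairing (no replicate block) edgeR gave 1, 0, 10, 4 and 0, beside 36, 2, 1035, 168 and 0 of all 14301 tested genes. DESeq2 without the pairing gave 1 for *Smad4* under SB505124. A test against 2-fold gave 0, 0, 9 and 5 in the first 4 comparisons, and no fold rule gave 11 for *Smad4* under TGFβ1 and 28 for TGFβ1 with Smad4 on. No filter gave 8 for *Smad4* under SB505124 and 3 in the interaction, at least 10 counts per library gave 2 for *Smad4* under SB505124 and 7 for TGFβ1 with Smad4 off, and DESeq2 with the line gave 2 in the interaction.

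Leaving out each library gave 2 to 3, 0 to 1, 3 to 4, 2 to 3 and 0 to 2 of the 8 genes, 1 to 2 for the line, 0 to 0 for both line-by-treatment terms, and 2 to 6, 0 to 5, 11 to 16, 7 to 12 and 0 to 0 pathway genes. The *Il33* interaction ran from -3.26 to -3.06. The *Il18* line difference ran from -0.93 and reversed, to 0.024 and 0.016 without the B73 or B87 library with Smad4 on under SB505124. The cause of these shifts was not tested. Counts of 33 or fewer limit *Il33* and *Il18* with Smad4 on under TGFβ1, and *Il1a* and *Il1b* were at or near the floor.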

Other observations

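*Aldh1a1*, *Cbx7*, *Cdk19*, *Zmym3* and *B3galt4* had ranks of 90 to 220 by Spearman's rho (0.952 to 0.976), since many genes tie over 8 libraries. The endothelial markers summed to 7.24 to 26.1 CPM with Smad4 off under TGFβ1 and to 0.702 to 5.18 CPM in the other groups. *Kdr* had the highest group mean among them except with Smad4 on under TGFβ1, where *Cdh5* averaged 2.40 CPM and *Kdr* 1.56 CPM. The mast cell markers summed to at most 1.46 CPM in any library. The T cell and innate lymphoid markers, among them cells known to respond to IL-33, summed to at most 1.497 CPM, mostly *Rora*.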
